A study of Mus musculus with 2 samples.

Results

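Blood vascular endothelial cells line the capillaries, venules and arterioles of the limbus, the ring of tissue where the clear cornea meets the vascularised ocular surface. They were picked from droplet-based single-cell RNA sequencing of mouse cornea and limbus by a rule on unique molecular identifiers (UMIs, the molecule tags that are counted). A cell needed at least 4 UMIs of Pecam1, Cdh5, Egfl7 and Flt1 in sum, no UMI of Prox1, under 2 of Lyve1, and low levels of epithelial, stromal and mural genes. This left 308 cells of 19696 that passed the filters on depth and mitochondrial RNA, 66 of them wild-type cells and 242 from the library labelled Pax6 +/-. Because measured values chose these cells, their levels of the rule's genes are given as a description.

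The study compared wild-type mice with mice labelled Pax6 +/-, which carry 1 working and 1 lost copy of the gene for a transcription factor of eye development. The series text names 2 mice of each genotype, and there was 1 library for each. The anterior segment was kept without lens, retina and iris, most conjunctiva was trimmed off, and the tissue was digested at 37 °C with 0.7 mg/mL liberase for 1 h and then with 0.25% trypsin for 15 min. Neither group had another treatment in the labels, and age, strain, sex and the Pax6 allele are not given there. With a single library for each genotype there is no replicate check, so every difference describes these libraries, and no p-value is given. Every interval is an exact 95% interval that covers counting error alone. Whether the cells came from the limbus itself or from conjunctiva left on the tissue cannot be told apart here.

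Endothelial cells of blood vessels read vascular endothelial growth factor (VEGF) through the receptors encoded by Kdr and Flt1, are held together by the adhesion molecules encoded by Cdh5 and Pecam1, and are stabilised by angiopoietin signalling through Tek and Tie1. Venules recruit white blood cells with P-selectin (Selp) and E-selectin (Sele), arteries depend on Notch and ephrin-B2 signalling, and lymphatic vessels take their identity from the transcription factor Prox1. The normal cornea has no blood vessels, and the limbal arcades are the vessels from which new ones grow into it.

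Promoter sequence is shown first for 4 genes of the endothelial list, chosen because their windows hold the letters described next. The windows come from RefSeq (GRCm38.p6), cover the 250 bases before the gene start, and are written 5′ to 3′ on the gene's strand. Capitals mark AGGAAG, the core letters of sites bound by ETS transcription factors such as Erg and Fli1, or its reverse complement.
Selp (chr1:164115014-164115263, plus strand): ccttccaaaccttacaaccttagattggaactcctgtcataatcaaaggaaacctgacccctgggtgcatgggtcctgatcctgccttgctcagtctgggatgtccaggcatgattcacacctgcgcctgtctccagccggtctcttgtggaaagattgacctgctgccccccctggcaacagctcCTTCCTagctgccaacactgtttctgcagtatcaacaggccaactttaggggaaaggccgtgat
Flt1 (chr5:147726012-147726261, minus strand): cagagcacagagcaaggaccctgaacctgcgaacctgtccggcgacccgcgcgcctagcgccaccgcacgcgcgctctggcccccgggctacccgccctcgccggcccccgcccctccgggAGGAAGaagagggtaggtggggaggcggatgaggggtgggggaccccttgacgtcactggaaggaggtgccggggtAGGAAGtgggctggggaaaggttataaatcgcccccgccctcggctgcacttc
Emcn (chr3:137340828-137341077, plus strand): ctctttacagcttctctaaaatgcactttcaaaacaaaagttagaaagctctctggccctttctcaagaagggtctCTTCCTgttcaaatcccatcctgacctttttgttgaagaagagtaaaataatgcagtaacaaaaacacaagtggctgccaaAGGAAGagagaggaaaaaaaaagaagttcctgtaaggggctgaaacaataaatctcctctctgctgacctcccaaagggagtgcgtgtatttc
Tie1 (chr4:118489850-118490099, minus strand): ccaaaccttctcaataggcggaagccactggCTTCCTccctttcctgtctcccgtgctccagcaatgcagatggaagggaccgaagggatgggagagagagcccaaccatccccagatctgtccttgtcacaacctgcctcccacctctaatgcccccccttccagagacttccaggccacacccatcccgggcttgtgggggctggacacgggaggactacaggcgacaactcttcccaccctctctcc

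The letters AGGAAG stood in 29.5% of all 32851 windows of this length, searched on both strands. Of the 20 endothelial genes, 12 had a window and 9 of these held them. In Selp the match began 64 bases before the start, in Tie1 219 bases, in Flt1 129 and 53 bases, and in Emcn 174 and 93 bases. Of the 4 marker genes, Selp and Flt1 had a window.

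A second pair of windows is shown for Gbp2b and Ifit1, interferon-induced genes that were higher in the library labelled Pax6 +/-. They too were chosen because their windows hold the letters described next. Capitals mark GAAA, any 2 bases and GAAA again, the letters of an interferon-response element, or their reverse complement. A match to this motif can share bases with AGGAAG.
Gbp2b (chr3:142594597-142594846, plus strand): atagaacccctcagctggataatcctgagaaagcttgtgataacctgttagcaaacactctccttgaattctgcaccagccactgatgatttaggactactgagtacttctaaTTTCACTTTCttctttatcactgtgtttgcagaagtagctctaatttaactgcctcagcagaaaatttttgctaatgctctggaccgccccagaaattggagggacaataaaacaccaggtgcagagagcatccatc
Ifit1 (chr19:34640639-34640888, plus strand): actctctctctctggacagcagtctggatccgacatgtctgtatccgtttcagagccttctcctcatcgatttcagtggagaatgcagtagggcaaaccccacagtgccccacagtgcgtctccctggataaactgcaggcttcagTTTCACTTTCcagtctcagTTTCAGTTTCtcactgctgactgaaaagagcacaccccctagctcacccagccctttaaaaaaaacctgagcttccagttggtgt

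These letters stood in 2.98% of all windows. Of the 32 genes of the antigen presentation and interferon list, 26 had a window and 10 of these held them. Of the 10, only Gbp2b and Ifit1 were 2-fold or more higher in the library labelled Pax6 +/-. Ifitm3, also that far higher there, had a window without these letters. A match describes the letters only, not a bound site.

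Pax6 RNA went against the label of the library labelled Pax6 +/-. It stood at 377 CPM in wild-type epithelial cells and at 750 CPM in epithelial cells of the other library, although a UMI need not report a lost copy. Krt12, the main corneal keratin, stood there at 29187 and 1797 CPM. CPM are the UMIs of a gene per 1000000 UMIs of a class, without mitochondrially encoded genes. The libraries held 124540296 and 131567589 UMIs, with medians of 10218 and 12537 UMIs per kept cell. They also differed in sex, since no kept wild-type cell held Y-linked UMIs without Xist while 39.4% of kept cells of the other library did. The libraries shared 33 barcodes among kept cells and none among the blood endothelial cells.

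The chosen cells carried the markers of blood vessel endothelium. Flt1 (ENSMUSG00000029648, GRCm38 chromosome 5, 147561604 to 147726011, minus strand), the VEGF receptor that also acts as a decoy, stood at 2616 CPM (2451 to 2789) in wild-type cells and at 2620 CPM (2547 to 2694) in those of the library labelled Pax6 +/-. Selp (ENSMUSG00000026580, chromosome 1, 164115264 to 164150026, plus strand), which encodes P-selectin, stood at 1912 CPM (1771 to 2060) and 2785 CPM (2710 to 2861). Pecam1 (ENSMUSG00000020717, chromosome 11, 106654217 to 106750628, minus strand), an adhesion molecule of endothelial junctions, stood at 1448 and 1411 CPM. Cdh5 (ENSMUSG00000031871, chromosome 8, 104101625 to 104144511, plus strand), the endothelial cadherin, stood at 794 and 925 CPM. Of these 4, only Selp was not part of the rule.

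Endothelial genes outside the rule were present as well. Emcn, a sialomucin of capillaries and veins, stood at 981 CPM in wild-type and 1076 CPM in Pax6 +/- labelled cells and was found in 81.8% and 88.0% of them. Plvap, which forms the diaphragms of fenestrae and caveolae, stood at 978 and 1480 CPM. The VEGF receptor gene Kdr stood at 534 and 520 CPM, the angiopoietin receptor gene Tek at 291 and 268 CPM, and its partner Tie1 at 137 and 155 CPM. Vwf, the carrier of clotting factor VIII, stood at 143 and 312 CPM. Epithelial cells held at most 0.402 CPM of Emcn, Plvap, Kdr, Tek, Tie1 and Vwf in the wild-type library and at most 0.460 CPM in the other.

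Levels in single cells were broad. Flt1 ranged from 0 through a median of 15.7 to 69.9 UMIs per 10000 in the wild-type cells and from 0 through 21.6 to 119 in the cells of the library labelled Pax6 +/-. Pecam1 had medians of 13.4 and 12.6 with highest values of 53.6 and 50.5. Selp was far more uneven, with medians of 0 and 2.14 and highest values of 158 and 154, and the 5 cells with most Selp held 61.3% of its UMIs in the wild-type and 23.7% in the other library. The ranges of the libraries overlapped for each of these genes.

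**Figure D1:**
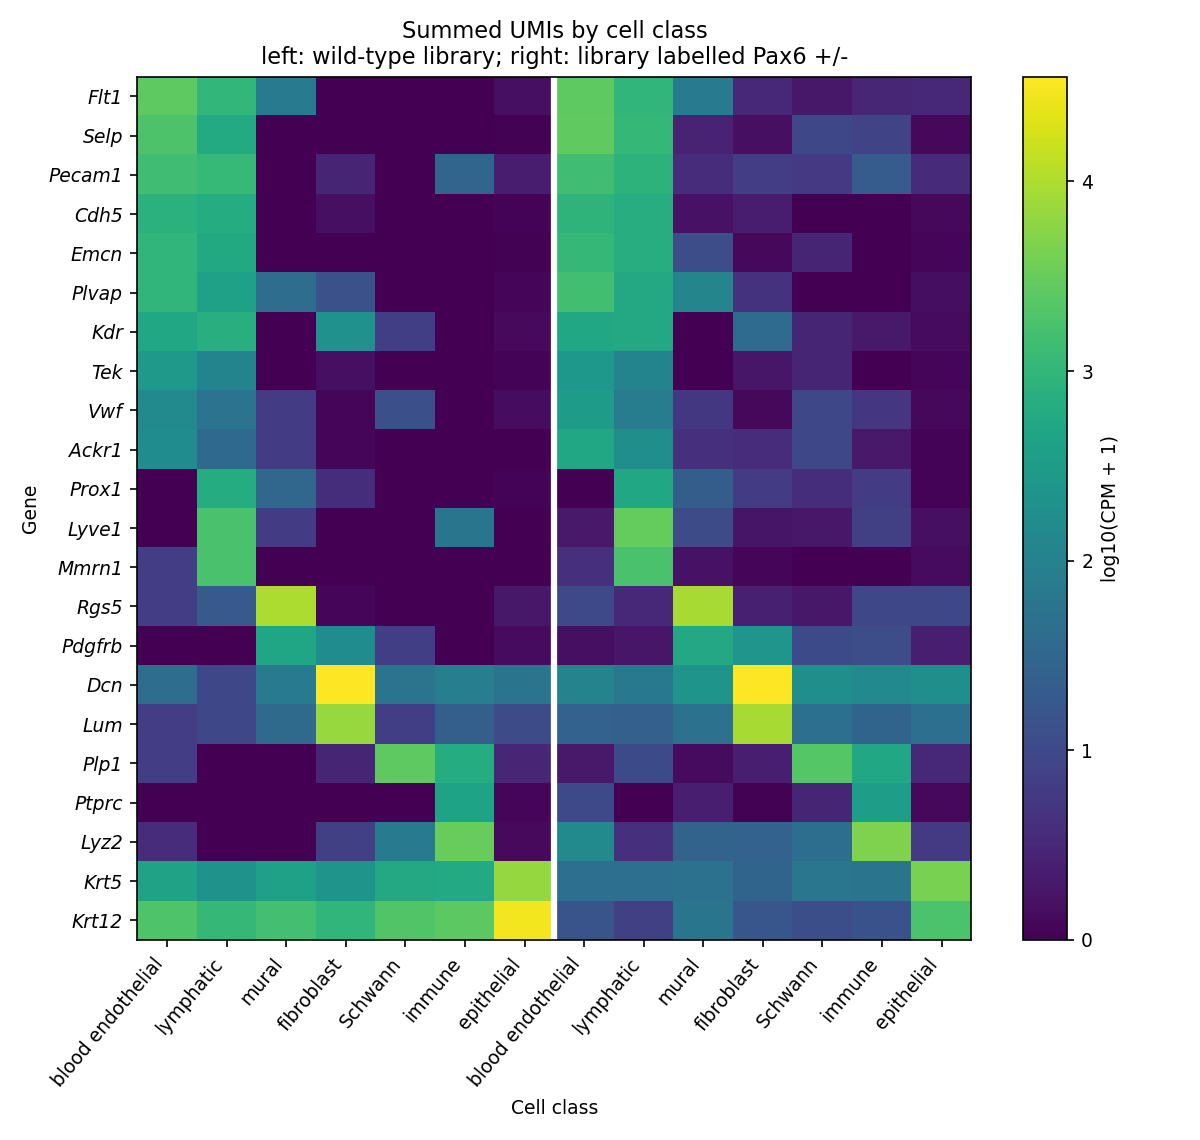
Level of 22 genes in 7 cell classes of the wild-type library (left) and of the library labelled Pax6 +/- (right), as log10(CPM + 1) of UMIs summed over the cells of a class; cells in no named class are not drawn. Blood endothelial cells are high in Flt1, Selp, Pecam1 and Cdh5, share Pecam1, Cdh5, Emcn and Kdr with lymphatic cells, and lack Prox1 by the rule. Flt1, Pecam1 and Cdh5 were also part of the rule.

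Blood endothelial cells made up 0.650% (0.503 to 0.826) of the 10154 kept wild-type cells and 2.54% (2.23 to 2.87) of the 9542 kept cells of the library labelled Pax6 +/-. Among non-epithelial cells of the named classes alone they made up 7.44% (5.80 to 9.37) of 887 and 11.3% (10.0 to 12.7) of 2140, so part of the gap in the first share moved with the epithelial share. These totals leave out 42 wild-type and 613 other kept cells in no named class, and counting them would narrow the gap further. In the library labelled Pax6 +/- they made up 2.74% (2.28 to 3.27) of cells with Xist alone and 2.37% (1.91 to 2.91) of cells with Y-linked UMIs alone. Wild-type cells with Xist alone gave 0.521% (0.387 to 0.686). How much vascular tissue each dissection kept is not recorded, and it cannot be told apart from genotype.

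Depth was lower than in epithelial cells, fibroblasts and lymphatic cells of the same library, and higher than in mural and Schwann cells. The wild-type blood endothelial cells had a median of 4656.5 UMIs (1187 to 21727) and those of the library labelled Pax6 +/- a median of 6688.5 (1173 to 32258), which sum to 357806 and 1878675 UMIs without mitochondrial genes. Low wild-type levels are therefore less precise. At the edge of the rule, the 3 wild-type and 9 other cells with 4 or 5 endothelial UMIs held 0 and 81.7 CPM of Emcn, whereas the 63 and 233 cells with 6 or more held 995 and 1102 CPM. Just outside, 10 and 23 cells with 2 or 3 such UMIs held 45.5 and 35.9 CPM.

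RNA of other cell types was measured in the chosen cells, and its part in the results was not tested. Epithelial genes summed to 3127 CPM in the wild-type cells and to 248 CPM in those of the library labelled Pax6 +/-, with all 10 genes of that list found in each. At least 1 Krt12 UMI was found in 100% and 9.50% of the cells. The 10 fibroblast genes summed to 900 and 2017 CPM, with 3 and 1 of them at 0. The 12 mural genes summed to 120 and 275 CPM, with 6 and 3 at 0, among them Myh11, Des and Higd1b in both libraries. The 14 lymphatic genes summed to 134 and 177 CPM, with 5 and 2 at 0, and the 10 Schwann cell genes to 64.3 and 52.7 CPM, with 6 and 3 at 0. The 12 myeloid and lymphoid genes summed to 109 and 839 CPM, with 7 and 3 at 0, and Cd3e and S100a8 were at 0 in both. Cells with immune RNA were chosen as those with a Ptprc UMI or 2 or more UMIs of the lysozyme gene Lyz2 or the complement gene C1qa. These were 0 of 66 wild-type cells and 3 of 242 cells of the library labelled Pax6 +/-. The 3 cells held 279 of the 280 UMIs of Lyz2 and 210 of the 213 UMIs of C1qa, which that choice fixed in large part. Without these 3 cells 313 of the 338 genes called higher between the libraries and 183 of the 185 called lower were still 2-fold or more apart. Of the listed genes called between the libraries, Cxcl1, Cxcl2, Fn1, Plaur, H2-Aa and Lyz2 were not, and their ratios without these cells were 1.94, 0.242, 0.505, 1.86, 1.95 and 0.194. The value for Lyz2 is a description, since Lyz2 helped to choose these cells.

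Against the other non-epithelial cells of the named classes in the same library, the endothelial list stood far higher, and since the rule used 4 of its genes this is a description. Of 4679 wild-type genes that reached 50 CPM on either side, 1079 (23.1%) lay 2-fold or more above in blood endothelial cells and 937 (20%) below, 43.1% in all. The library labelled Pax6 +/- gave 857 (18.2%) and 752 (16%) of 4697, 34.3% in all. The upward share of these calls was 53.5% and 53.3%, but 43.0% and 41.15% with TMM factors, which moved the median log2 ratio over all genes from 0.18 to -0.02 and from 0.25 to 0.02. It was 46.1% and 42.4% with DESeq2 factors, and 42.1% and 42.5% with the other classes weighted equally. Of the 20 blood endothelial genes, 19 lay 2-fold or more above in each library, with median ratios of 54.2 and 12.4 beside 1.13 and 1.19 over all genes. The exception in each was Erg, an endothelial ETS factor that fibroblasts of this tissue held too, at 393 and 260 CPM. Lymphatic cells share many endothelial genes and were 18 of the 821 wild-type but 198 of the 1898 other comparison cells, and they held 1004 CPM of Flt1 in the second.

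The genes most separated from the other non-epithelial cells had varied roles. Among wild-type cells Sele, E-selectin, stood at 967 against 1.40 CPM, Mecom, a zinc-finger regulator, at 827 against 4.21 CPM, and Ly6c1, a surface antigen of mouse endothelium, at 903 against 8.89 CPM. The substance P receptor gene Tacr1 stood at 154 CPM against 0, at least 328-fold higher. In the library labelled Pax6 +/-, Tacr1 stood at 315 against 9.08 CPM, a ratio of 34.7 (29.3 to 41.2). There, the fatty acid carrier gene Fabp4 stood at 693 against 19.99 CPM, the apelin receptor gene Aplnr at 127 against 3.47 CPM, Esm1, a proteoglycan of angiogenic endothelium, at 99.5 against 2.70 CPM, and the arterial factor gene Sox17 at 277 against 9.13 CPM. Syt15, Mecom, Adgrl4 and Tacr1 were among the 12 leading genes of both libraries.

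Transcription factor and interferon genes were mostly higher in both libraries, and chemokine genes differed in direction. Of the endothelial transcription factor genes, 14 of 21 measured lay 2-fold or more above in wild-type cells and 13 of 20 in the other library, with 0 below in each. Fli1 stood at 573 and 593 CPM against 33.7 and 109 CPM, and Sox18 at 215 and 275 CPM against 4.68 and 22.8 CPM. Of the antigen presentation and interferon genes, 21 of 28 and 23 of 32 lay 2-fold or more above and 1 below in each. Efflux transporters of the vessel wall were among the junction and barrier genes that were higher, with Abcb1a at 291 and 268 CPM against 2.81 and 10.7 CPM and Abcg2 at 788 and 808 CPM against 20.3 and 50.8 CPM. Nos3, the endothelial nitric oxide synthase gene, stood at 159 and 225 CPM against 1.56 and 13.002 CPM. Chemokine and cytokine genes were divided, with 4 of 11 above and 5 below in wild-type cells (median ratio 1.38) and 1 of 12 above and 6 below in the others (0.581). Cxcl12, a chemokine of stem cells and lymphocytes, was above in each, Ccl2 and Ccl7, which attract monocytes, were below in each, and the cytokine gene Il6 stood at 257 against 26.2 CPM in wild-type cells and at 163 against 366 CPM in the others.

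Beside lymphatic endothelium the difference was smaller and lay in particular groups. In the library labelled Pax6 +/-, 347 of 4476 genes (7.75%) lay 2-fold or more above in the 242 blood beside the 198 lymphatic cells, and 363 (8.11%) below, 15.9% in all, with a median ratio over all genes of 0.971. Of the 20 blood endothelial genes, 10 lay 2-fold or more above and 1, Cldn5, below (median ratio 2.08). Prox1 and Lyve1 were used by the rule to divide the classes. The sum of Pecam1, Cdh5, Egfl7 and Flt1 chose the cells of both classes. Levels of all these genes are therefore a description. The wild-type library held 18 lymphatic cells, too few for the same comparison, and its values are not compared.

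Receptors of the VEGF family separated the vessel types. Flt1 stood at 2620 CPM in blood and 1004 CPM in lymphatic cells, a ratio of 2.61 (2.48 to 2.74), and was found in 97.1% and 28.8% of them. Flt4, the VEGF-C receptor of lymphatic vessels, had 30.9 and 460 CPM, a ratio of 0.0670 (0.0506 to 0.0874). The shared receptor gene Kdr had 520 and 556 CPM, a ratio of 0.934 (0.858 to 1.02). Of the co-receptors, Nrp1 stood at 491 and 157 CPM and Nrp2 at 456 and 555 CPM. Angpt2, an angiopoietin that loosens vessels, stood at 53.2 and 165 CPM. Flt1 and Nrp1 were thus on the blood side, Flt4 and Angpt2 on the lymphatic side, while Kdr, Tie1 (155 and 164 CPM) and Egfl7 (554 and 541 CPM) were close. Flt1 and Egfl7 helped to choose both classes, so their values are a description.

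Venous and adhesion genes were higher in the blood vessel cells. Of 13 venous genes, 9 lay 2-fold or more above and 1, Nr2f2, below (median ratio 2.91), and of 15 leukocyte adhesion genes 8 lay above and 0 below (2.35). Selp stood at 2785 and 1052 CPM, Sele at 378 and 117 CPM, and the chemokine-presenting receptor gene Ackr1 at 532 and 183 CPM. Vcam1, an adhesion molecule for lymphocytes and monocytes, stood at 212 and 68.5 CPM. Nr2f2, a factor of venous and lymphatic identity, stood at 187 and 731 CPM, and the tight junction gene Cldn5 at 212 and 780 CPM.

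Matrix and interferon genes followed the same side, while tip cell and angiogenic genes went both ways. Of 18 genes of the basement membrane, 9 lay 2-fold or more above in blood cells and 1, Fn1, below (median ratio 1.80), beside 7.75% and 8.11% of all genes. Col15a1, a basement membrane collagen, stood at 244 and 55.4 CPM and the matrix protein gene Sparcl1 at 1611 and 497 CPM. Of 14 tip cell and angiogenic genes, 8 were higher and 4 (Adm, Angpt2, Pgf and Trp53i11) lower, beside 7.75% and 8.11% of all genes. Among the higher, Pdgfb, which recruits pericytes, stood at 113 and 20.2 CPM, Apln at 55.4 and 7.03 CPM, and the insulin receptor gene Insr at 769 and 201 CPM. Of 31 antigen presentation and interferon genes, 10 were higher and 0 lower (median ratio 1.70), with Gbp4, an interferon-induced guanylate-binding protein gene, at 190 and 68.5 CPM. Of 21 endothelial transcription factor genes 2 were higher (Epas1, Sox17) and 1 lower (Nr2f2), near the 7.75% and 8.11% of all genes. Their median ratio was 1.31, beside 0.971 over all genes.

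The genes leading toward lymphatic cells were their chemokine Ccl21a (14.4 CPM in blood and 12871 CPM in lymphatic cells), the multimerin gene Mmrn1 (3.19 and 1722 CPM), neurotensin (Nts, 1.06 and 718 CPM), the guidance genes Sema3a (5.86 and 704 CPM) and Sema3d (4.79 and 493 CPM), Nppc (0 and 184 CPM), Ptx3 (0 and 147 CPM), Plce1, Pard6g and Serpina3n. Of the genes leading toward blood cells, Dkk2, a secreted Wnt regulator, had 78.8 and 4.39 CPM, a ratio of 17.9 (9.48 to 38.2). Tacr1 had 315 and 36.0 CPM, a ratio of 8.73 (6.92 to 11.1). The kinase gene Nuak1 stood at 129 and 18.02 CPM, and Samd12 at 93.7 and 13.2 CPM. Tagln, an actin-binding protein gene of contractile cells, stood at 246 and 35.2 CPM.

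The leading genes C1qa, C1qc, Lyz2, Ctss and H2-Eb1 came from the 3 cells with immune RNA. Without these, C1qa stood at 1.62 CPM, C1qc at 0.542 CPM, Lyz2 at 0.542 CPM, Ctss at 1.08 CPM and H2-Eb1 at 9.21 CPM in the blood cells. The low values of C1qa and Lyz2 follow from the choice of these cells by the same genes. Cd74 and H2-Aa, which present antigen on MHC class II, then had ratios of 2.42 and 2.69 to the lymphatic cells in place of 6.74 and 7.31. The lymphatic class was itself mixed at its edge. Its 30 cells with a single Prox1 UMI and under 2 of Lyve1 held 3152 CPM of Flt1 and no Mmrn1, while its 148 cells with at least 2 Prox1 UMIs held 655 and 2007 CPM. Against those 148 cells the blood cells had 442 genes 2-fold or more above and 430 below. Tacr1 stood at 17.9 CPM and Selp at 742 CPM in them.

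**Figure D2:**
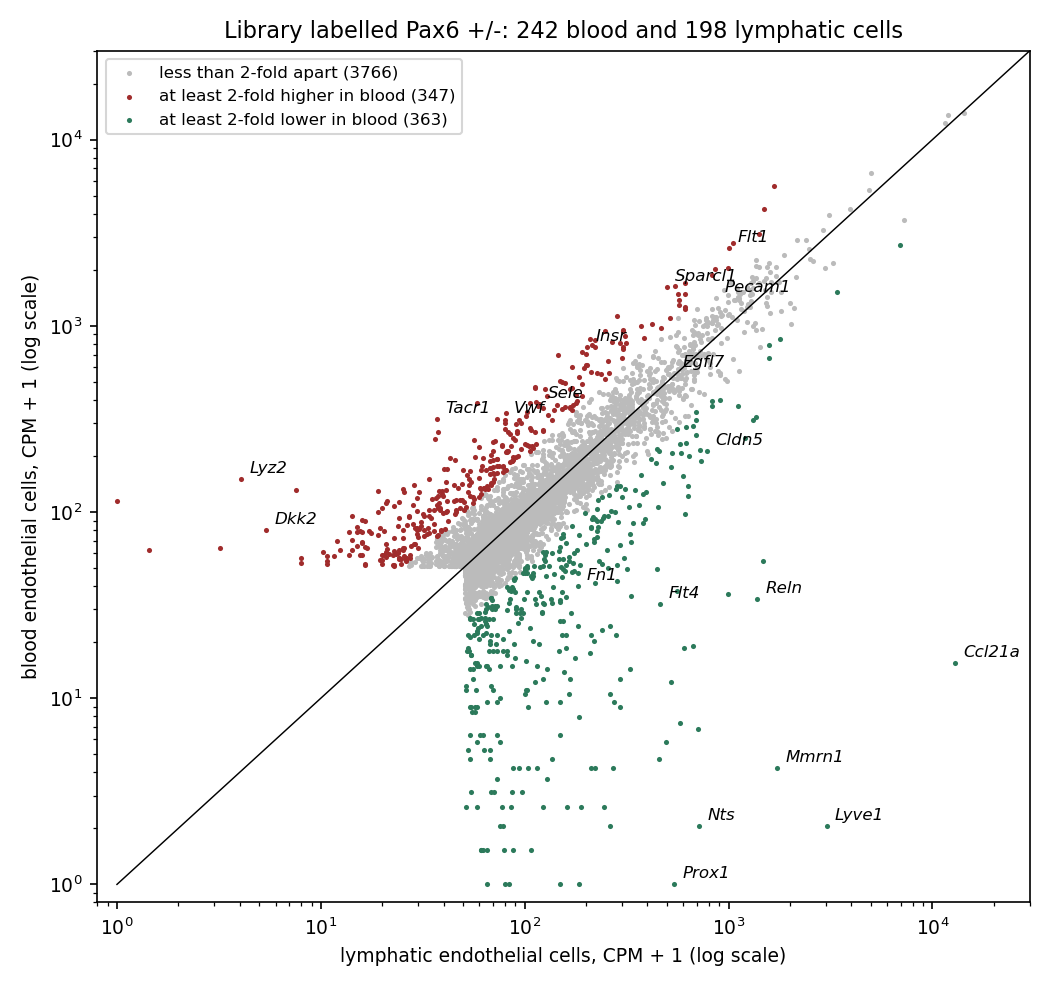
Level of each measured gene in lymphatic (x axis) and blood endothelial cells (y axis) of the library labelled Pax6 +/-, as CPM + 1 on log axes; each point is a gene, coloured where the ratio is at least 2 or at most 0.5, and the line marks equal levels. Flt1, Sele, Vwf and Tacr1 lie above the line, Pecam1 and Egfl7 near it, and Ccl21a, Mmrn1, Reln, Flt4 and Cldn5 below it. Prox1, Lyve1, Flt1, Pecam1 and Egfl7 were among the genes used to choose the cells.

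Within the blood endothelium a venous and an arterial end were visible. Cells were called venous-high when Selp, Ackr1, Vwf and Lrg1 summed to at least 10 UMIs per 10000, and arterial-high when Gja5, Gja4, Sema3g and Hey1 summed to at least 3. These limits were chosen after the values were seen, and the ranges are cuts through a gradient rather than cell types. In the wild-type library 23 cells were venous-high (34.8%, 23.5 to 47.6), 12 arterial-high (18.2%, 9.76 to 29.6), 0 both and 31 neither. In the library labelled Pax6 +/- 130 were venous-high (53.7%, 47.2 to 60.1), 40 arterial-high (16.5%, 12.1 to 21.8), 2 both and 70 neither (28.9%, 23.3 to 35.1). Within 2 times of the limits lay 12 and 7 of the wild-type cells and 47 and 23 of the others.

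Depth moved with these ranges. Venous-high, arterial-high and remaining cells had medians of 5568, 4409.5 and 3365 UMIs in the wild-type and 7650, 6095.5 and 5164 UMIs in the library labelled Pax6 +/-. With every cell thinned to 1000 UMIs, 27.3% of wild-type and 38.4% of Pax6 +/- labelled cells held Selp, beside 34.8% and 55.4% unthinned, and 0.0108% and 0.0295% of thinned epithelial cells did. Median depths of the epithelial cells were 10641 and 14049 UMIs. The part of depth in the larger venous-high share was not tested further.

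**Figure D3:**
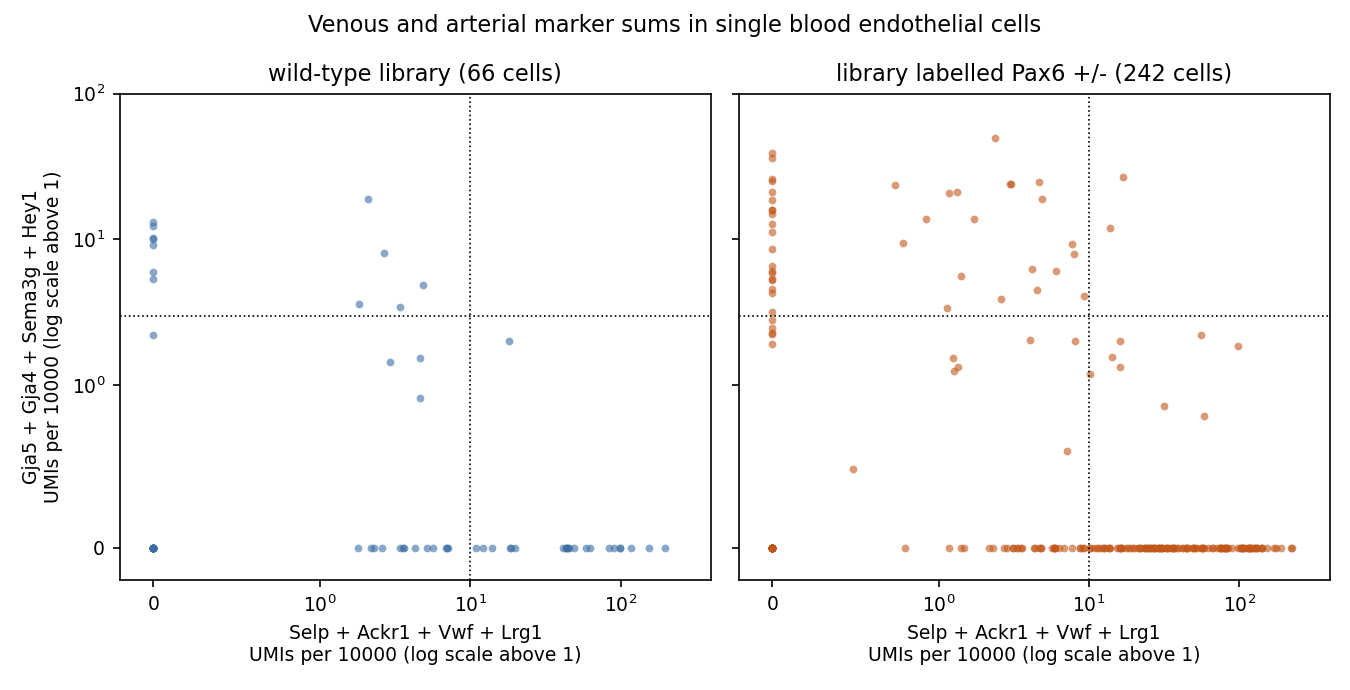
Summed UMIs per 10000 of 4 venous genes (x axis) and 4 arterial genes (y axis) in each blood endothelial cell, on axes that are linear below 1 and logarithmic above, for the wild-type library (66 cells) and the library labelled Pax6 +/- (242 cells). Dotted lines mark the limits of 10 and 3; 0 and 2 cells lie past both.

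Genes outside the split that separated along it overlapped in part between the libraries. Of 4085 wild-type genes, 621 (15.2%) lay 2-fold or more above in venous-high beside arterial-high cells and 833 (20.4%) below, 35.6% in all. The library labelled Pax6 +/- gave 338 (7.61%) and 443 (9.98%) of 4441, 17.6% in all. Of 3524 genes measured in both and not used for the split, 533 and 246 were venous-high, 127 of them in both libraries, which is 23.8% of the first and 51.6% of the second set. Arterial-high were 594 and 279, with 180 in both (30.3% and 64.5%).

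Sele, Icam1 and Slco2a1 were among the genes leading at the venous end. Sele stood at 2658 CPM in venous-high and 0 CPM in arterial-high wild-type cells, at least 55.05-fold higher, and at 607 and 0 CPM in the library labelled Pax6 +/-, at least 50.04-fold higher. Icam1, the adhesion molecule for neutrophils and lymphocytes, had 684 and 32.2 CPM in wild-type and 357 and 72.7 CPM in the other cells. Nr2f2, the factor of venous identity, had 210 and 0 CPM in wild-type and 283 and 20.2 CPM in the other cells. The prostaglandin transporter gene Slco2a1 had 459 and 0 CPM in wild-type and 780 and 68.7 CPM in the other cells. Clotting factor V (F5) had 459 and 0 CPM in wild-type and 126 and 0 CPM in the other cells. Pcdh7, Fmo2, Gpm6a, Cmah, Mctp1, Rcan1 and Apoe completed the 12 leading venous genes, which were ranked by the interval bound nearest to 1 in either library.

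Cldn5, Vegfc and Igfbp3 were among the genes leading at the arterial end, while the junction and barrier list went both ways, with 3 of 18 genes venous-high and 7 arterial-high in wild-type cells and 1 and 4 of 17 in the others. Both arterial-high counts include Gja4 and Gja5, which helped to set the arterial range. Cldn5, the main claudin of vessels, stood at 7.77 CPM in venous-high and 1288 CPM in arterial-high wild-type cells, and at 45.0 and 1135 CPM in the library labelled Pax6 +/-. Vegfc, a ligand of Flt4, had 62.2 and 515 CPM in wild-type and 34.4 and 719 CPM in the other cells. The kinase gene Bmx had 0 and 145 CPM in wild-type and 7.06 and 275 CPM in the other cells. Igfbp3, an insulin-like growth factor carrier, had 38.9 and 1787 CPM in wild-type and 233 and 1992 CPM in the other cells. Esm1 had 0 and 145 CPM in wild-type and 11.5 and 311 CPM in the other cells. Fn1, fibronectin, had 7.77 and 290 CPM in wild-type and 14.1 and 202 CPM in the other cells. Col8a1, Arl15, Prdm16, S100a4, Clu and Col5a2 completed the 12.

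The Notch and ephrin list lay toward the arterial end, with 7 of 11 genes 2-fold or more below in venous-high wild-type cells and 8 of 12 in the library labelled Pax6 +/-, and 0 above in either. Both counts include Hey1, which helped to set the arterial range, so they are in part fixed by the split. The wild-type count also includes Ephb4, a gene of the venous list. Dll4, the Notch ligand, stood at 54.4 CPM in venous-high and 354 CPM in arterial-high wild-type cells and at 56.5 and 255 CPM in the others. Efnb2, ephrin-B2, had 77.7 and 435 CPM in wild-type and 96.2 and 537 CPM in the other cells. The chemokine gene Cxcl12 had 148 and 644 CPM in wild-type and 179 and 1519 CPM in the other cells. The general markers were closer, with venous-high to arterial-high ratios of 0.836 and 0.989 for Flt1, 0.971 and 1.19 for Pecam1, and 1.52 and 0.985 for Cdh5. With 23 and 12 wild-type cells, wild-type genes at 0 may have been missed at this depth.

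Between the libraries most measured genes of the blood endothelial cells had levels within 2-fold. Of 4308 genes with at least 50 CPM in either, 338 (7.85%) lay 2-fold or more above in the library labelled Pax6 +/- and 185 (4.29%) below, 12.1% in all, with a median log2 ratio of 0.13. Of the 20 blood endothelial genes, 1 lay above, Vwf, and 0 below (median log2 ratio 0.18). Flt1, Pecam1, Cdh5 and Egfl7 of that list chose the cells in both libraries, so their closeness is a description. Of 21 endothelial transcription factor genes 0 were apart in either direction (0.24). Flt1 had a ratio of 1.00 (0.934 to 1.08), Pecam1 of 0.974 (0.886 to 1.07), Kdr of 0.973 (0.833 to 1.14) and Selp of 1.46 (1.34 to 1.58).

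**Figure D4:**
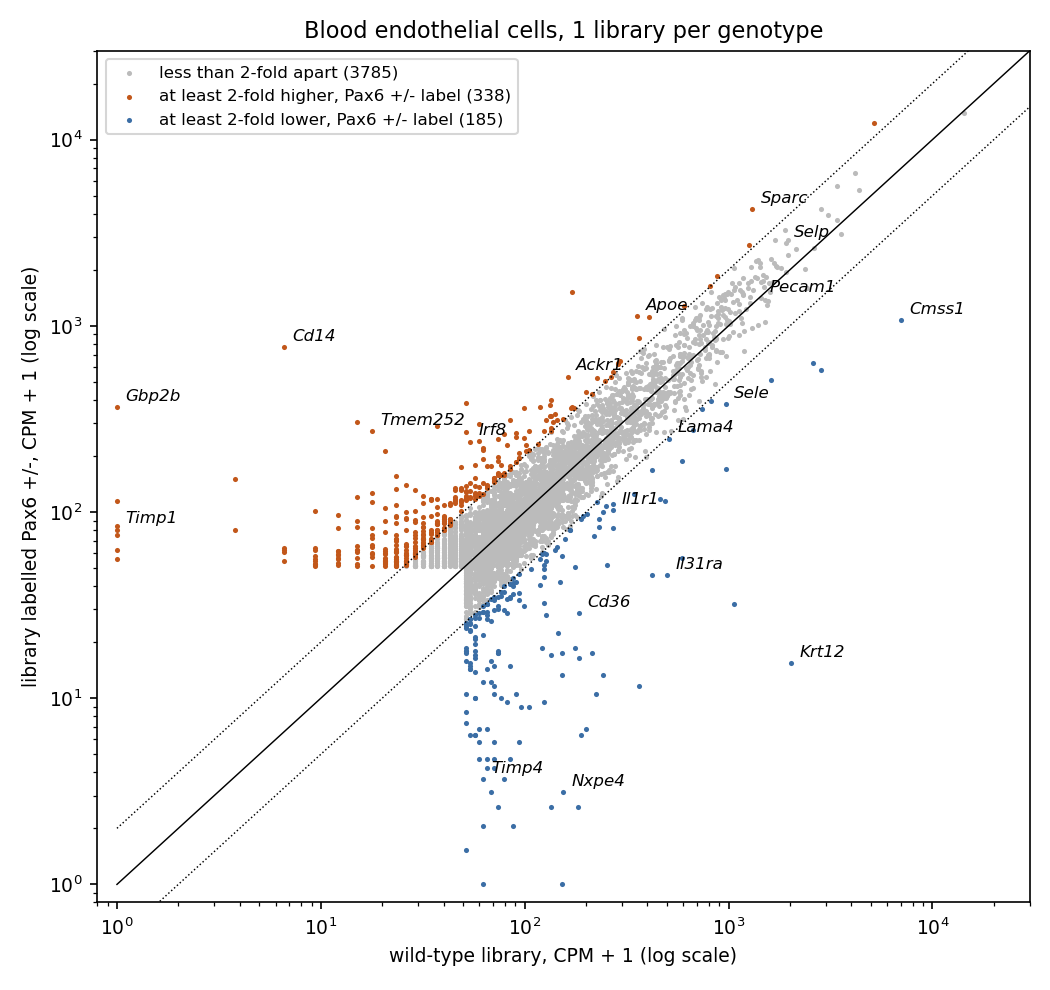
Level of each measured gene in blood endothelial cells of the wild-type library (x axis) and of the library labelled Pax6 +/- (y axis), as CPM + 1 on log axes; each point is a gene, the solid line marks equal levels and the dotted lines 2-fold. Most genes lie between the dotted lines, Gbp2b and Cd14 lie far above, and Krt12 far below.

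Venous genes moved in different directions. Of 13, Ackr1, Tmem252 and Vwf lay 2-fold or more above in the library labelled Pax6 +/- and Sele and Il1r1 below (median log2 ratio 0.64). Ackr1 stood at 162 CPM (123 to 210) in wild-type and 532 CPM (500 to 566) in Pax6 +/- labelled cells, a ratio of 3.28 (2.52 to 4.36), and the wild-type cells held it in 18.2% and the others in 31.4%. Sele (ENSMUSG00000026582, chromosome 1, 164048234 to 164057677, plus strand) stood at 967 CPM (868 to 1074) and 378 CPM (351 to 407), a ratio of 0.391 (0.344 to 0.446). Over all blood endothelial cells 34.8% and 33.5% held a Sele UMI, at the unequal median depths given above, and among venous-high cells 19 of 23 (82.6%, 61.2 to 95.05) and 73 of 130 (56.2%, 47.2 to 64.8) did. Its highest cells reached 103 and 41.8 UMIs per 10000, and 5 wild-type cells held 56.4% of the wild-type UMIs. Il1r1, the interleukin-1 receptor, stood at 271 and 101.1 CPM.

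Among venous-high cells alone Sele stood apart in the same way, at 2658 CPM in the wild-type and 607 CPM in the Pax6 +/- labelled cells. Selp, Ackr1 and Vwf were among the genes that set this range and are not compared within it. Other adhesion genes were closer, with Icam1 at 305 and 256 CPM over all cells, Icam2 at 86.6 and 139 CPM, and Vcam1 at 123 and 212 CPM. Chst2, a sulfotransferase that modifies selectin ligands, stood at 8.38 CPM from 3 UMIs and at 54.8 CPM. Of 15 leukocyte adhesion genes 2 lay above and 1 below (median log2 ratio 0.18). Within the venous-high cells alone the direction turned for Fn1, at a ratio of 1.82, for Hspa1a, at 0.811, and for Gja4, at 0.341, although Gja4 also set which cells counted as arterial-high.

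Capillary genes lay mostly below a ratio of 1, and arterial genes mostly above it, beside 2539 of all 4308 genes above it. Of 10 capillary genes 0 lay 2-fold or more above, 3 lay that far below and 3 lay above 1 at all (median log2 ratio -0.32). The fatty acid transporter gene Cd36 stood at 184 and 27.7 CPM, the transcription factor gene Tcf15 at 50.3 and 17.0 CPM, and Timp4, an inhibitor of matrix proteases, at 61.5 and 2.66 CPM. Few cells carried them, since 5 wild-type cells held 83.3% of Cd36 and 100% of Timp4 UMIs. Rgcc stood at 159 and 300.2 CPM and Gpihbp1, which anchors lipoprotein lipase, at 100.6 and 175 CPM. Of 8 arterial genes 1 lay 2-fold or more above, the connexin gene Gja4 at 19.6 and 62.3 CPM (turned in venous-high cells, as above), and 0 below, with 6 above a ratio of 1 (0.41). Sox17 stood at 201 and 277 CPM, Efnb2 at 151 and 161 CPM and Dll4 at 134 and 93.7 CPM.

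Tip cell and angiogenic genes stayed mostly within 2-fold, as did measured genes in general, of which 12.1% were apart. Of 12, Plaur, the urokinase receptor gene, lay above and Trp53i11 below (median log2 ratio 0.45). Without the 3 cells with immune RNA Plaur had a ratio of 1.86. Esm1 was found in 12 of 66 wild-type cells (18.2%, 9.76 to 29.6) and 35 of 242 Pax6 +/- labelled cells (14.5%, 10.3 to 19.5), at 106 and 99.5 CPM. Apln was found in 10.6% (4.37 to 20.6) and 10.3% (6.80 to 14.9). At least 2 UMIs of 6 mitotic genes, among them Mki67 and Top2a, were found in 2 wild-type cells (3.03%, 0.369 to 10.5) and 9 others (3.72%, 1.71 to 6.94). For Esm1, Apln and the mitotic genes the intervals of the libraries overlapped. They cover counting error among the cells of each library alone, so whether the genotypes differ in these shares was not tested.

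Receptors of VEGF and angiopoietin were close, while 2 genes that bone morphogenetic protein (BMP) signalling induces were higher. Of 18 genes of this list, Id1 and Smad6 lay 2-fold or more above and Bmp6 below (median log2 ratio 0.17). Id1, a BMP-induced inhibitor of differentiation, had 405 and 1119 CPM, a ratio of 2.76 (2.33 to 3.29), with medians of 2.14 and 6.47 UMIs per 10000 per cell. Other non-epithelial cells held 244 and 396 CPM of it and epithelial cells 235 and 783 CPM, so it was higher in those too. The inhibitory Smad gene Smad6 stood at 16.8 and 63.9 CPM, and the ligand gene Bmp6 at 83.8 and 39.9 CPM. Tek had a ratio of 0.921 (0.744 to 1.15), Nrp1 of 1.16 (0.978 to 1.39) and Nrp2 of 1.65 (1.34 to 2.05). Of 12 Notch and ephrin genes, Efnb1 and Epha4 lay above (median log2 ratio 0.39).

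Basement membrane genes were mostly higher. Of 18, Sparc, Lamc1 and Col18a1 lay 2-fold or more above and Lama4 and Fn1 below, and 14 lay above a ratio of 1 (median log2 ratio 0.58), beside 2539 of all 4308 genes. Sparc, a matrix glycoprotein, had 1305 and 4241 CPM, a ratio of 3.25 (2.96 to 3.58), with medians of 10.6 and 24.98 and highest values of 42.2 and 169 UMIs per 10000 in single cells. The collagen IV genes Col4a1 and Col4a2 had levels of 685 and 383 CPM in wild-type and 1255 and 753 CPM in the other cells. Laminin chains diverged, with Lamc1 at 134 and 281 CPM and Lama4 at 511 and 247 CPM, a ratio of 0.483 (0.406 to 0.576). Other non-epithelial cells held 11372 and 21474 CPM of Sparc, the fibroblast gene Col1a1 stood at 16.8 and 126 CPM in the blood endothelial cells themselves, and the part of stromal RNA in these ratios was not tested. Lama4, in contrast, stood at 33.2 and 165 CPM in the other non-epithelial cells.

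Genes of antigen presentation and interferon response were mostly higher too, by small ratios. Of 31 measured, 25 lay above a ratio of 1, 4 lay 2-fold or more above (Gbp2b, Ifit1, Ifitm3, Psmb9) and 1, Ly6a, below (median log2 ratio 0.41). Over all 4308 genes 2539 lay above a ratio of 1, 7.85% lay 2-fold or more above and 4.29% below (0.13). B2m, the light chain of MHC class I, had 1397 and 2258 CPM, a ratio of 1.62 (1.47 to 1.78), and the heavy chain gene H2-K1 had 989 and 1228 CPM and H2-D1 665 and 1032 CPM. Psmb9, an immunoproteasome subunit, stood at 47.5 and 131 CPM. Ifit1, an antiviral RNA-binding protein, had 81.0 and 229 CPM, a ratio of 2.82 (1.94 to 4.27). With cells thinned to 1000 UMIs Ifit1 was found in 4.55% and 12.8% of them, beside 13.6% and 39.7% unthinned and 2.93% and 7.32% of thinned epithelial cells. The surface antigens of mouse endothelium went the other way, with Ly6a at 671 and 273 CPM, Ly6e at 718 and 394 CPM and Ly6c1 at 903 and 718 CPM.

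Gbp2b (ENSMUSG00000040264, chromosome 3, 142594847 to 142619179, plus strand), an interferon-induced guanylate-binding protein gene, had 0 UMIs in the 66 wild-type cells and 685 UMIs in the 242 others, where it stood at 365 CPM (338 to 393), at least 43.5-fold higher. It was found in 59.1% of Pax6 +/- labelled cells and, thinned to 1000 UMIs, in 24.4% of these and 5.17% of epithelial cells. Its median was 1.40 and its highest value 35.3 UMIs per 10000, and the 5 cells with most held 24.5%. Levels were 432 CPM in cells with Xist alone and 267 CPM in cells with Y-linked UMIs alone. Other wild-type cells also lacked it, with 0 CPM in other non-epithelial and 0.0262 CPM in epithelial cells, beside 72.6 and 60.3 CPM in the library labelled Pax6 +/-. The difference was therefore not limited to blood endothelial cells. Its neighbours in the family were closer, with Gbp2 at 187 and 208 CPM, Gbp3 at 78.3 and 149 CPM and Gbp4 at 137 and 190 CPM. Reads shared between such similar genes could be assigned differently, which was not tested.

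**Figure D5:**
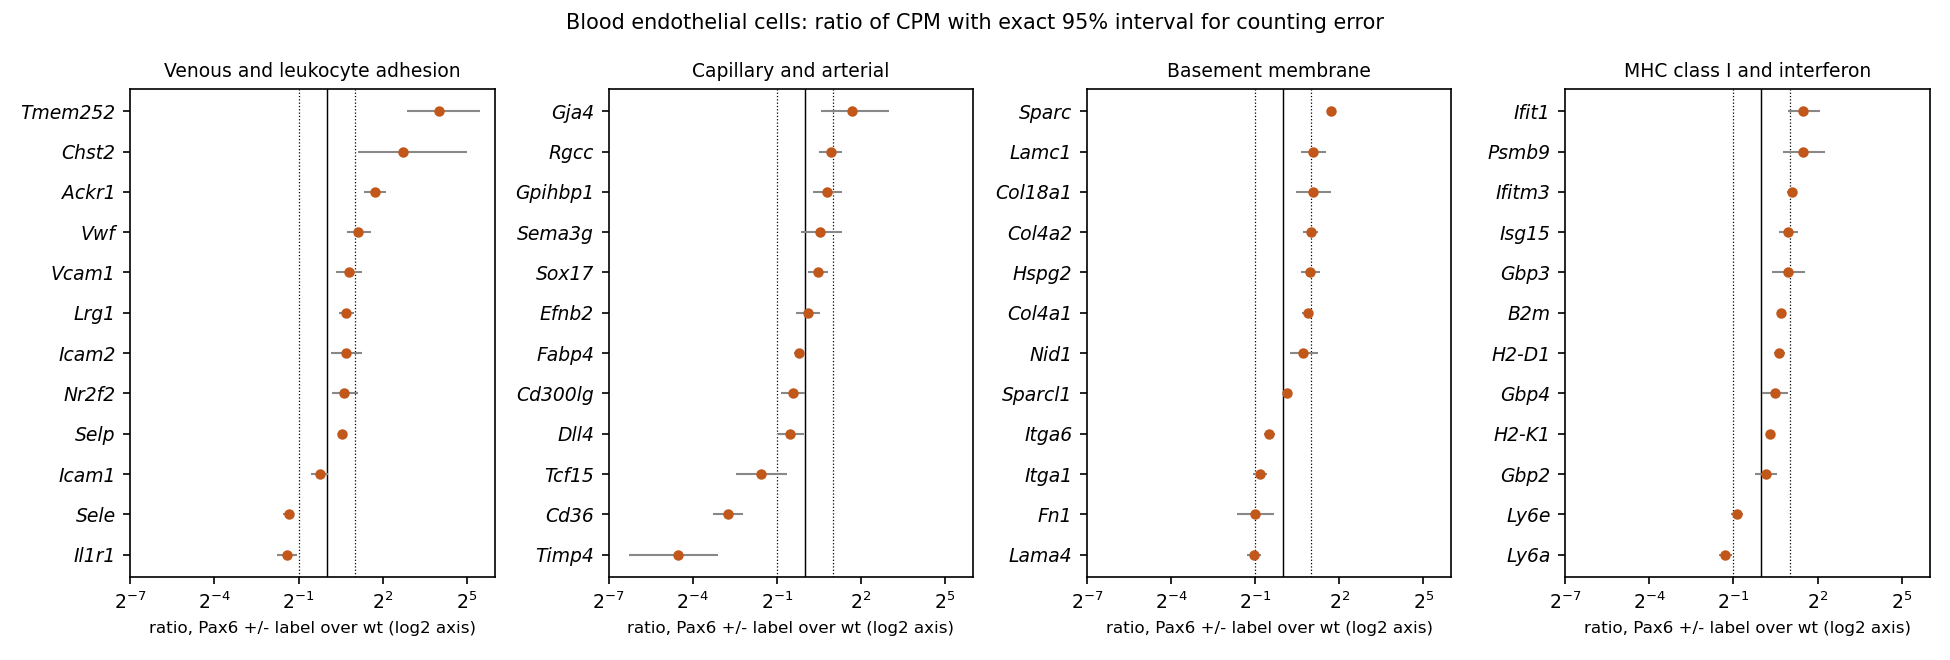
Ratio of CPM, library labelled Pax6 +/- over wild type, in blood endothelial cells for 12 genes of each of 4 groups, on a log2 axis; points are ratios, bars exact 95% intervals for counting error, solid lines a ratio of 1 and dotted lines 2-fold. Ackr1 and Vwf lie above 2-fold and Sele and Il1r1 below in the venous panel, Sparc lies above and Lama4 and Fn1 below in the basement membrane panel, and Ly6a is the lowest of the last panel.

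Chemokine and vessel tone genes were higher in part. Of all 4308 measured genes, 7.85% lay 2-fold or more above and 4.29% below (median log2 ratio 0.13), and the counts of these short lists stand beside those shares. Of 10 chemokine and cytokine genes, Ackr3, Cxcl1, Cxcl10 and Cxcl2 lay 2-fold or more above and Il1r1 below (0.51). Ackr3, a scavenging receptor for CXCL12, had 22.4 and 156 CPM, a ratio of 6.98 (3.49 to 16.3). Cxcl10, an interferon-induced chemokine, stood at 19.6 and 211 CPM, but 5 cells held 49.2% of its UMIs in the library labelled Pax6 +/-. Cxcl1 fell from a ratio of 2.35 to 1.94 without the 3 cells with immune RNA. Cxcl2 turned direction without the same cells, from 11.2 and 80.9 CPM to a ratio of 0.242. Of 15 vasoregulatory genes Edn1, Ednrb and Gucy1a1 lay above and 0 below (0.41), with the vasoconstrictor gene Edn1 at 50.3 and 127 CPM. Of 11 coagulation genes 3 lay above, Vwf and Procr among them, and tissue factor (F3) below (0.15). F3 stood at 55.9 and 9.05 CPM, and wild-type epithelial cells held 525 CPM of it.

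Among the 12 genes leading the list of higher levels in the library labelled Pax6 +/- were Cd14, Gbp2b, Timp1, Tmem252, Pde4d, Reep1, Akap12, BC004004, Ackr3, Rbp7 and H2-DMb1. Cd14, the co-receptor for bacterial lipopolysaccharide, stood at 5.59 CPM from 2 UMIs and at 764 CPM, a ratio of 137 (37.8 to 1130), and was found in 3.03% and 45.9% of cells. The 3 cells with immune RNA held 141 of its 1435 UMIs, and without them its ratio was 125.4. Thinned to 1000 UMIs 0% of wild-type and 20.2% of Pax6 +/- labelled cells held it, beside 0.271% and 2.74% of epithelial cells. Tmem252, a membrane protein of the venous list, stood at 16.8 and 271 CPM, Rbp7, a retinol carrier of capillary endothelium, at 58.7 and 294 CPM, and Timp1, a protease inhibitor, at 0 and 79.3 CPM, at least 9.46-fold higher. Pde4d, a cyclic AMP phosphodiesterase gene, stood at 170 and 1526 CPM but at 119 and 2254 CPM in epithelial cells. Without the 3 cells with immune RNA H2-DMb1 stood at 41.7 CPM, beside 5.59 CPM in wild-type cells. Of the 12, 10 lay above the epithelial level of the library labelled Pax6 +/-.

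The 12 genes leading the other direction were mostly epithelial. They were Krt12, Slurp1, Aqp5, Tmprss11d, Lypd2, Nxpe4, Clip4, Chst9, Erich5, Mal2, Col17a1 and Dsp, of which only Nxpe4 was above the level in wild-type epithelial cells. Krt12 stood at 2023 CPM in wild-type blood endothelial cells and 14.4 CPM in the others. Of the 185 genes 2-fold or more below, 86 were above both the epithelial and the other non-epithelial level of the wild-type library, and of the 338 higher genes 148 were above these levels in the library labelled Pax6 +/-.

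A ranking limited to such genes, chosen after the values were seen, placed other genes behind those named. On the higher side stood Irf8, an interferon regulatory factor, at 53.1 and 238 CPM, Lef1, a Wnt pathway factor, at 13.97 and 88.9 CPM, and Apoe, a lipid carrier, at 355 and 1127 CPM, with BC028528, Hnrnpa0 and Ackr1. Irf8 had the same ratio of 4.48 without the 3 cells with immune RNA, and Apoe 2.95 in place of 3.18. On the lower side stood Il31ra, an interleukin-31 receptor gene, at 500 and 44.7 CPM, the MHC class I genes H2-Q6 and H2-Q7 at 53.1 and 5.32 CPM and at 81.0 and 8.52 CPM, and the organic anion transporter gene Slco1a4 at 134 and 15.97 CPM. Apol10b stood at 103 and 7.98 CPM and Nxpe2 at 64.3 and 3.73 CPM. The 2 class I genes are near copies of each other and of further family members, so their counts may be divided between copies.

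Some genes of that ranking were higher throughout the wild-type library. Cmss1 stood at 6979 and 1068 CPM in blood endothelial cells but also at 3468 and 1194 CPM in other non-epithelial and 2208 and 725 CPM in epithelial cells. Lars2, Camk1d and AY036118 showed the same pattern, with Lars2 at 2826 and 581 CPM in the blood endothelial cells. Il31ra was found in 18.8% of wild-type epithelial cells thinned to 1000 UMIs, beside 39.4% of the blood endothelial cells.

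Pax6 itself stood at 67.1 CPM from 24 UMIs in wild-type and 14.9 CPM from 28 UMIs in Pax6 +/- labelled blood endothelial cells, a ratio of 0.222 (0.124 to 0.400). It stood at 23.4 and 12.7 CPM in other non-epithelial cells and far higher in epithelial cells, as given above. The 10 epithelial genes summed to 3127 and 248 CPM in these blood endothelial cells. The part of epithelial RNA in the Pax6 ratio was not tested. Foxc1, a factor of anterior segment and vessel development, stood at 117 and 87.3 CPM. Immediate early genes, which tissue digestion induces, lay above a ratio of 1 in 14 of 15 cases (median log2 ratio 0.37, beside 0.13 over all genes), with 1 of them 2-fold or more above (Hspa1a), 0 below and Fos at 3393 and 3719 CPM. Their part in the groups that were mostly higher, such as the interferon and basement membrane genes, was not tested.

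The difference in sex between the libraries was set aside by taking only cells in which Xist but no Y-linked gene was found. The 121 such cells of the library labelled Pax6 +/- held 687 CPM of Cd14, 610 CPM of Ackr1, 463 CPM of Sele and 3735 CPM of Sparc. Against the wild-type cells 355 genes then lay 2-fold or more above and 196 below, of which 265 and 158 were among the 338 and 185. Esm1 and Apln differed by sex class within that library, at 62.3 and 145 CPM and at 16.1 and 110 CPM in cells with Xist alone and with Y-linked UMIs alone. Mice and sex are joined there, so the 2 cannot be told apart.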

How the data were processed

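The authors deposited raw UMI counts per gene and barcode for 2 libraries, made with Cell Ranger 8.0.0 per the file headers and on GRCm38 per the submitters' processing notes; the rule by which barcodes were selected is not given in the sources used here. Kept barcodes had 500 or more genes, 1000 or more UMIs and no more than 20% of mitochondrial UMIs. Blood endothelial cells had at least 4 UMIs of Pecam1, Cdh5, Egfl7 and Flt1, 0 of Prox1, under 2 of Lyve1 and, per 10000 UMIs, under 30 of Krt5, Krt14 and Krt15, under 50 of Dcn, Lum and Kera, and under 10 of Rgs5 and Myh11. Lymphatic cells met the same limits but held Prox1 or at least 2 Lyve1 UMIs. The other classes held under 4 endothelial UMIs and passed a limit on their own genes: mural and fibroblast cells those above, Schwann and immune cells at least 4 UMIs of their markers, epithelial cells 30 of the keratins or 20 of Krt12 per 10000. Members, lists and limits were chosen with earlier results of these data known.

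UMIs were summed over the cells of a class and divided by the class total without mitochondrially encoded genes (CPM). Genes of at least 50 CPM on either side were measured, and a ratio of at least 2 was called by size. Where a class held no UMI of a gene, 3 UMIs over the class were used in its place, which gives a bound. Intervals were exact at 95% (Clopper-Pearson for shares, Poisson for levels, conditional binomial for ratios). With 1 library per genotype no test was run. The genes named between libraries were the 12 in each direction with the interval bound farthest from 1, among genes above the other non-epithelial level of the library where they were higher, without mitochondrial, ribosomal, sex-linked and predicted genes; the same bound ranked the other comparisons. For shares of cells, each cell was also thinned to 1000 UMIs, which left out 0 cells, and to 2000 UMIs, which left out 4 and 12. Scrublet marked 0.0295% and 0.398% of kept cells as doublets, too few for the caller to have worked, so none were removed. Ratios and intervals were checked on simulated data. Promoter windows and gene starts were read from RefSeq for GRCm38.p6. Python 3.11.15, numpy 2.4.6, pandas 2.3.3, scipy 1.17.1, scanpy 1.11.5, matplotlib 3.10.9, R 4.3.3, and edgeR 4.0.16 and DESeq2 1.42.0 (scaling factors only) were used. Alternatives were other scalings, filters, cell limits, members and depths. Some genes are not reported here.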

Additional observations from a re-analysis of the deposited data

How the results depend on the processing

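The shares of blood endothelial cells lay between 0.591% and 0.719% in the wild-type library and between 2.44% and 2.74% in the library labelled Pax6 +/- under other limits on cells, and were 7.44% and 11.3% of non-epithelial cells of the named classes. Counts of genes 2-fold or more above and below followed the minimum level. At 20 CPM they were 741 and 382 between libraries and 537 and 576 against lymphatic cells, with 1741 (wild type) and 1285 below against other non-epithelial cells. At 100 CPM they were 152 and 74 between libraries, 219 below against lymphatic cells, 690 and 522 (wild type) and 436 below against other cells. Without a minimum they were 1431 and 5181, 2881 and 2716, 8402 and 2470, and 8391 and 2897, where the floor for genes at 0 sets many calls. Equal weight for the other classes gave 632 wild-type genes above. Venous-high cells alone gave 593 genes above between libraries, and genes above the epithelial and other non-epithelial levels numbered 148 and 86. The share of calls between libraries that lay above was 64.6%, and 60.2% with TMM and 57.7% with DESeq2 factors. Counts within the 6 lists recomputed with these factors moved by at most 1. Of 664 alternatives for single genes, 596 stayed within counting error, 61 moved and 7 reversed: Cxcl2 at 6 endothelial UMIs (0.241), in cells with Xist alone (0.480), without immune RNA (0.242) and in venous-high cells (0.114), and in venous-high cells Gja4 (0.341), Hspa1a (0.811) and Fn1 (1.82). The cause was not tested. No paired analysis was possible because there was 1 library per genotype. Depth limits the wild-type values: its 66 cells held 357806 UMIs, so genes under the floor of 3 UMIs cannot be told from absent ones.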

Other observations

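The blood endothelial cells that reached neither the venous nor the arterial limit were not featureless. In the library labelled Pax6 +/- they held 412 CPM of Gpihbp1, the capillary protein that anchors lipoprotein lipase, against 75.9 CPM in venous-high and 162 CPM in arterial-high cells. The apelin gene Apln, a marker of growing vessel tips, was at 141 CPM in them against 29.1 and 8.08 CPM, and Col4a1 at 2239 CPM against 841 and 1224 CPM. In the wild-type library the cells of neither range held 168 CPM of Gpihbp1 against 38.9 and 48.3 CPM and 928 CPM of Col4a1 against 466 and 483 CPM, whereas Apln was at 29.9 CPM against 54.4 and 0 CPM from few UMIs. These cells were also the shallowest, with medians of 3365 and 5164 UMIs, and the ranges were set after the values were seen.

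Lipid uptake genes were mostly lower in the library labelled Pax6 +/-, while glycolysis and barrier genes lay on both sides of a ratio of 1. Of 7 measured lipid uptake genes 0 lay 2-fold or more above and 2 (Cd36 and Tcf15) below, beside 4.29% of all genes below, and 2 lay above a ratio of 1 (median log2 ratio -0.62, beside 0.13 over all genes). Few wild-type cells carried some of them, since the 5 cells with most held 83.3% of Cd36 and 80.1% of Fabp4 UMIs. In the library labelled Pax6 +/- such cells held 53.8% and 30.9%. Of 15 glycolysis and hypoxia genes 0 lay that far above and 2 below (Egln3 and Eno1), and of 17 junction and barrier genes 1 and 1 (Gja4 and Slco1a4). Slc2a1, the glucose transporter of barrier vessels, was at 47.5 and 93.7 CPM, a ratio of 1.97 (1.20 to 3.46). Egln3, an oxygen-sensing hydroxylase, was at 53.1 and 13.3 CPM.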
